A study of Homo sapiens with 6 samples.

Results

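The BCL2 family, the caspases and the proteins that restrain or release them were examined in SH-SY5Y cells exposed to manganese. The members were given as a list of 31 gene names, chosen by role but with earlier results of these data known. Of these, 30 were read on the array by at least 1 probe set annotated to a single gene, out of 18132 such genes, and BIRC3 is not analysed here. Each gene was read from its brightest probe set, judged by the average of the 6 arrays. In 27 members that probe set was bright enough to be tested, among 13407 genes tested in all. APAF1, CASP4 and CASP10 were too dim.

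SH-SY5Y is a human neuroblastoma line with features of sympathetic neurons. The series compares 3 untreated control cultures with 3 cultures given 100 µM manganese for 24 h, a dose the labels state as the median lethal concentration divided by 5. Both groups are the same unmodified line, grown in a mixture of MEM and F12 with serum at 10%. The labels call the arrays biological replicates without stating how the cultures were separated, so p-values measure the spread between these cultures only.

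Apoptosis through mitochondria is decided by binding among BCL2 family proteins. BH3-only proteins sense stress and bind the guardians BCL2, BCL-XL, BCL-w and MCL1, which frees BAX and BAK to open the outer mitochondrial membrane. Cytochrome c then leaves the mitochondria and assembles with APAF1 into the apoptosome, which activates caspase-9, while inhibitor of apoptosis proteins hold caspases in check. Much of this control acts on proteins, by binding, cleavage and degradation, and transcript arrays read only the mRNA.

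No member passed the threshold of a limma adjusted p of 0.05, against 19 of the 13407 genes (0.142%), of which 0.134% were higher and 0.00746% lower in manganese. At an unadjusted p under 0.05 there were 3 of 27 members (11.1%), close to the 12.8% of all genes. The count of 3 became 8 without control 2 and 5 without control 1. In those fits 43 and 22 of the 13407 genes passed the adjusted threshold. The share of all genes at the unadjusted p is not given for them, so the 8 and the 5 cannot be read as a result about the members. With all 6 arrays 1 of the 3 members was higher, against 5.97% of all genes, and 2 were lower, against 6.85%. They were the BH3-only gene PMAIP1, higher in manganese, and the guardian gene BCL2L2 and the caspase gene CASP2, both lower. At the brightest probe set these were also the only tested members whose manganese and control arrays did not overlap. That was 3 of 27 against 19.8% of all genes, or 1 higher against 10.5% and 2 lower against 9.26%. At a dimmer probe set above the filter the groups also lay apart for MCL1 and BOK, higher, and for BID, BCL2L11 and CYCS, lower. The share over all such dimmer probe sets is not given, so this is no result about the members. The difference was above 0 in 16 of 27 members (59.3% against 54.1% of all genes). The 95% interval of the difference lay inside a 2-fold change in either direction for 24 of the 27 members, as it did for 94.5% of all genes. The exceptions were BCL2, CASP2 and PMAIP1.

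The arrays were not alike within the control group. Poly(A) spike-in RNA, read by 12 probe sets, averaged 5.98 on the log2 scale on control 1 and control 3, and 7.83 on control 2 and the manganese arrays. Control 1 was the lowest of the 6 arrays for 14 tested members, against 37.2% of all genes, and the highest for 9, against 27.9%. Together these are 85.2% of the members, against 65.1% of all genes. Differences against control 2 alone, the control whose spike-in signal was like that of treated arrays, are given for each member discussed below. Between the 2 ways of taking the controls the sign differed for 10 of 27 members (37% against 30.7% of all genes), and 12 of 27 were positive against control 2, where 51.6% of all genes were. The part of the spike-in level in any result was not tested. Sympathetic neuroblast markers were present, with 9 of the 10 listed on the array and all 9 above the 40th percentile on every array. Their mean level was 10.97 to 11.10 on control arrays and 10.83 to 10.89 on manganese arrays, without overlap. Of the 9, STMN2 differed by -0.71 and ISL1 by -0.58, or -0.27 and -0.26 against control 2. Control 1 was the highest array for both. The other 7 differed by -0.15 to 0.22, or -0.34 to 0.11 against control 2. Markers of mesenchymal-type cells averaged 6.37 to 6.56 and 6.46 to 6.55. Of these 9, 7 were above the 40th percentile on all arrays, with TWIST1 at a control mean of 12.005, and CD44 and YAP1 were below it. VIM differed by 0.77, or 0.75 against control 2, higher on all manganese arrays without overlap (limma adjusted p 0.152). Of the 7 tested, 4 were positive, and the median difference was 0.02. FN1 differed by -0.49, or 0.12 against control 2, and PRRX1 by -0.12, or -0.21. COL1A2 differed by -0.16, or -0.18 against control 2, lower on all manganese arrays without overlap. Of 5 leukocyte markers on the array, CD3E, CD68 and ITGAM were above the 40th percentile on all arrays, and PTPRC and CD14 were below it. The part of these markers in any result was not tested. In such bulk RNA, fewer cells of a type and less RNA per cell cannot be told apart.

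**Figure D1:**
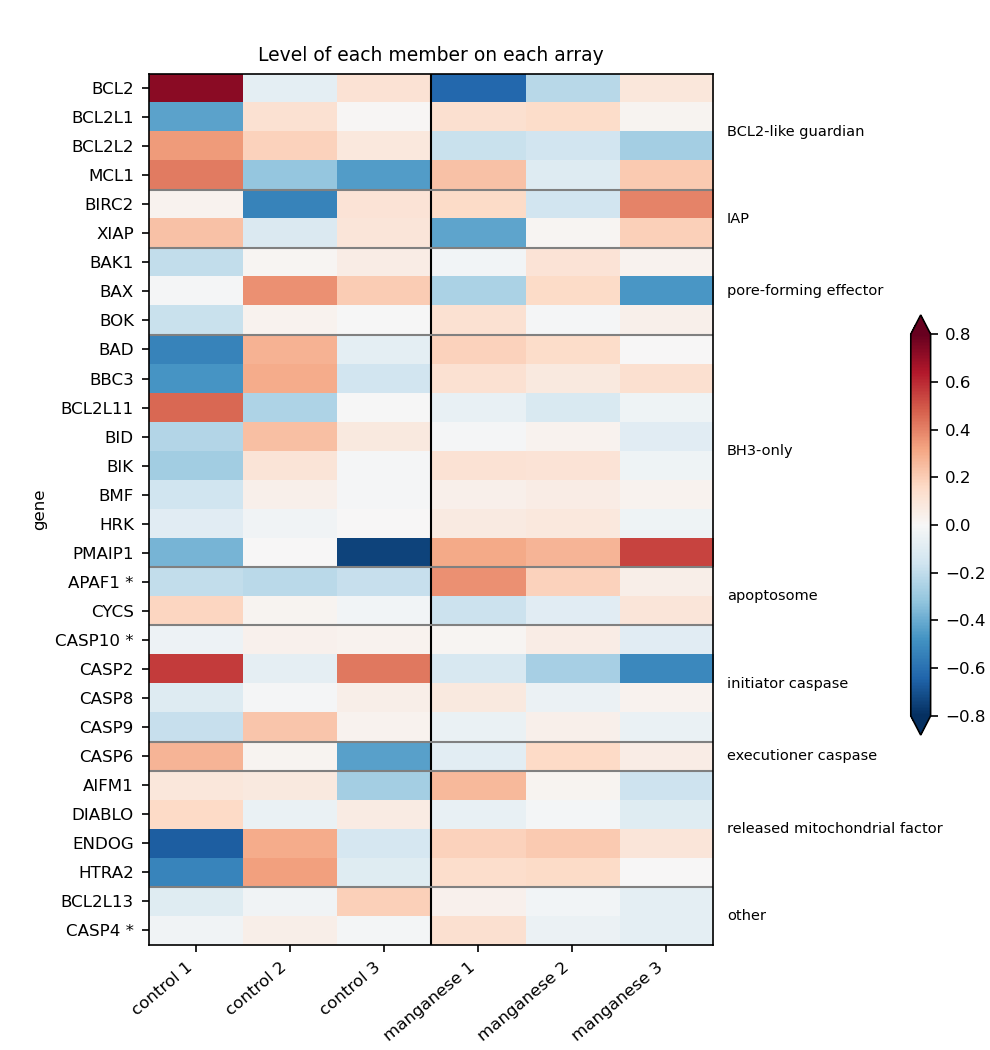
Level of the 30 members (rows, grouped by role) on each of the 6 arrays (columns), as the log2 value minus the mean of that gene over the 6 arrays; asterisks mark the 3 dim members. Control 1 carries many of the strong colours in both directions, with ENDOG, BAD and HTRA2 low and BCL2, CASP2 and BCL2L11 high, and PMAIP1 is the tested row in which all 3 manganese arrays lie above all 3 controls.

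The guardians are the antiapoptotic BCL2 proteins. BCL2L2, which encodes BCL-w, a guardian of long-lived neurons, was at 8.25, 8.09 and 7.997 (log2) on the control arrays and at 7.73, 7.76 and 7.64 on the manganese arrays. All manganese values were below all control values. The difference was -0.40 ± 0.11 (SE, n = 3 per group), a 1.32-fold lower level, with a limma adjusted p of 0.257. Against control 2 alone it was -0.39. A dimmer BCL2L2 probe set, at a mean of 4.37, differed by -0.05.

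BCL2, the founding member of the family, was at 6.40, 5.60 and 5.80 on control arrays and at 5.05, 5.46 and 5.77 on manganese arrays. The groups overlapped, with control 1 highest and manganese 1 lowest. The difference was -0.51 (95% interval -1.07 to 0.06, limma adjusted p 0.425) and -0.17 against control 2. Its probe sets did not move alike. A second one differed by -0.85, while the other 2 above the filter differed by 0.14 and 0.01.

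MCL1, a short-lived guardian that is replaced within hours, was at 10.17, 9.45 and 9.31 on control arrays and at 9.99, 9.66 and 9.97 on manganese arrays. The highest value and the lowest were both controls. The difference was 0.23 (-0.29 to 0.75), and 0.42 against control 2. The 4 MCL1 probe sets above the filter gave 0.09 to 0.23. At the second brightest, which differed by 0.16, the groups did not overlap. BCL2L1, whose main product is BCL-XL, was at 7.79, 8.33 and 8.22 on control arrays and between 8.24 and 8.36 on manganese arrays. Its difference of 0.20 (-0.16 to 0.55) came with a low control 1, and against control 2 it was -0.02. The other BCL2L1 probe sets above the filter gave 0.29 and -0.11.

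The inhibitor of apoptosis proteins bind caspases or tag them and their partners with ubiquitin. XIAP, which blocks caspases directly, was at 7.27, 6.92 and 7.13 on control arrays and at 6.62, 7.05 and 7.23 on manganese arrays, a difference of -0.14 (-0.55 to 0.26), or 0.04 against control 2. BIRC2, which encodes cIAP1, a ubiquitin ligase of TNF receptor complexes, was at 7.32, 6.76 and 7.40 on control arrays and at 7.45, 7.14 and 7.69 on manganese arrays. Its difference was 0.27 (-0.21 to 0.74), and 0.67 against control 2, the control in which BIRC2 was lowest. The groups of both genes overlapped. The other 3 BIRC2 probe sets above the filter gave -0.06 to -0.18 against the 3 controls and 0.04 to 0.33 against control 2.

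**Figure D2:**
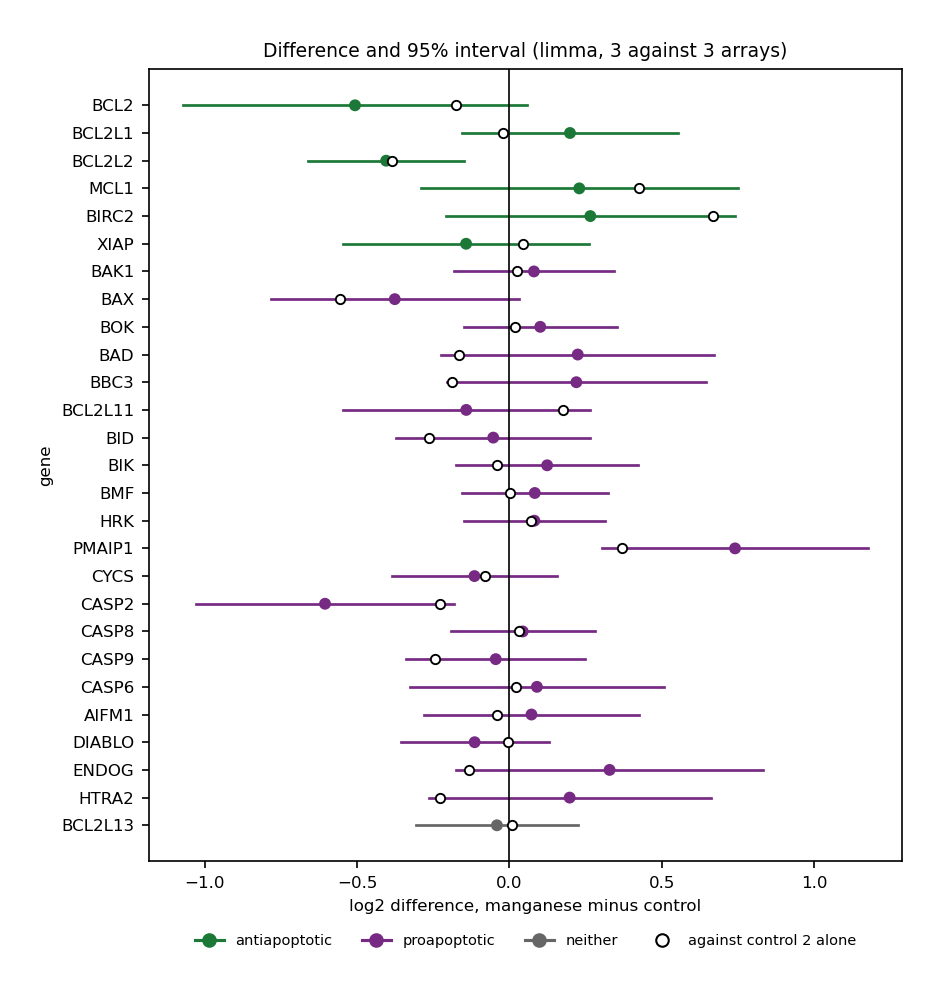
Log2 difference between manganese and control for the 27 tested members (filled points) with limma 95% intervals (lines, 3 against 3 arrays), coloured by antiapoptotic, proapoptotic or neither; open circles give the difference against control 2 alone. The intervals of BCL2L2, PMAIP1 and CASP2 exclude 0, and open circles fall across 0 from the filled point for 10 members, among them BAD, BBC3, HTRA2 and ENDOG.

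The pore-forming effectors are the proteins that breach the mitochondrial outer membrane. BAX was at 9.43, 9.81 and 9.65 on control arrays and at 9.19, 9.59 and 8.98 on manganese arrays. Manganese 2 lay above control 1, so the groups overlapped. The difference was -0.38 (-0.78 to 0.03, limma adjusted p 0.416), and -0.56 against control 2. The second BAX probe set gave 0.12. BAK1, the partner of BAX that resides on mitochondria, differed by 0.08 (-0.18 to 0.34) at its brightest probe set, or 0.03 against control 2. The other 3 above the filter gave -0.21 to -0.13, or -0.63 to -0.21 against control 2. BOK, a BAX-like protein found largely at the endoplasmic reticulum, differed by 0.10 (-0.15 to 0.35), or 0.02 against control 2. Its 3 probe sets gave 0.10 to 0.34, or -0.18 to 0.07 against control 2.

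Among the BH3-only genes PMAIP1 stood at the top. It encodes NOXA, which binds MCL1 and promotes its degradation, and it is induced by the ATF4 branch of the integrated stress response. PMAIP1 was at 5.93, 6.31 and 5.56 on control arrays and at 6.61, 6.57 and 6.85 on manganese arrays. The groups did not overlap, and the gap between control 2 and the lowest manganese array was the narrow one. The difference was 0.74 ± 0.19 (SE, n = 3 per group; 95% interval 0.30 to 1.18), a 1.67-fold higher level, with a limma adjusted p of 0.219. Over the other settings tried the limma adjusted p ran from 0.0350 to 0.700.

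Both PMAIP1 probe sets were above the filter and on the same side. The second was at 5.93, 5.76 and 5.45 on control arrays and at 6.73, 6.48 and 6.87 on manganese arrays, a difference of 0.98. Against control 2 the brightest gave 0.37 and the second 0.93. With arrays centred on housekeeping genes PMAIP1 was called, at 0.78 and a limma adjusted p of 0.0350, in a fit that called 189 genes in all.

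The 250 bases before the transcription start of PMAIP1 and of CASP2, the proapoptotic members with the smallest unadjusted p, are printed from RefSeq on GRCh38.p14 to show the control region of each transcript. BCL2L2 is named only. Both genes lie on the plus strand, PMAIP1 at chr18:59899746-59899995, CASP2 at chr7:143288101-143288350 and, for its second annotated start, chr7:143289338-143289587. Capitals mark the core of the cAMP response element, TGACGT, or its other strand, ACGTCA, which ATF and CREB family proteins are known to bind.
PMAIP1: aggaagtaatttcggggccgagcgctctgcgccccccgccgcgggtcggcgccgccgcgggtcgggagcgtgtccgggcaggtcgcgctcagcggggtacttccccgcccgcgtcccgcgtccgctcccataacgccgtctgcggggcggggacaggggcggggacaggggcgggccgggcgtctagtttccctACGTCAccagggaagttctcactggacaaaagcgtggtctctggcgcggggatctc
CASP2, first start: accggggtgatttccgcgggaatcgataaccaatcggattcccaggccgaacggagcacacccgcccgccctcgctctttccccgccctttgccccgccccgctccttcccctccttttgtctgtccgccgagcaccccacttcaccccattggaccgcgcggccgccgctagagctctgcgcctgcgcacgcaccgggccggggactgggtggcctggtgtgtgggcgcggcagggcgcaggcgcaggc
CASP2, second start: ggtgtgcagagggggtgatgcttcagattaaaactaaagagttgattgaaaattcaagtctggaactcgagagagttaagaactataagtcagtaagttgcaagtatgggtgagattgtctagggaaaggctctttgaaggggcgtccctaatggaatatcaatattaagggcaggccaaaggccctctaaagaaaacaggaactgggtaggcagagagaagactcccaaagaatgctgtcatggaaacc
The PMAIP1 window holds the core once, with its last base 51 bases before the start, and the CASP2 windows hold none. The AP-1 motif TGANTCA was in none of the 3, on either strand. By the same search 7.1% of the 35097 windows of all genes hold the cAMP response element core and 6.57% hold the AP-1 motif. The motif CCAAT and the p53 half-site RRRCWWGYYY were also searched for. The p53 half-site was in none of the 3 windows, and CCAAT was at 2 sites, both in the first CASP2 window. Of all windows 32% hold CCAAT and 5.58% the p53 half-site, and of the 47 windows of members 18 and 3. Of 47 windows of 27 members, 6 hold the core, and they belong to 4 genes, PMAIP1, BAD, CYCS and BIRC2. The BAD windows overlap at the same site, and so do the BIRC2 windows, so the 6 are not separate sites. The share per gene over all genes is not given. A match is a description of letters and shows no binding.

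The 30 bases around the core in the other 3 genes show how its surroundings vary.
BAD, chr11:64284741-64284770, minus strand: gacctacccgagTGACGTtccgagaggtga
CYCS, chr7:25125324-25125353, minus strand: cagctcggccgcACGTCAgggcgcgggagc
BIRC2, chr11:102347197-102347226, plus strand: ccgggcgcgcTGACGTCAtcgtgcgtcaga
In BIRC2 the cores of both strands overlap to form the full palindrome. The 4 genes did not share a direction, with differences of 0.74 for PMAIP1, 0.27 for BIRC2, 0.22 for BAD and -0.11 for CYCS. Only the difference of PMAIP1 had an interval that excluded 0.

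The other BH3-only genes differed by -0.14 to 0.22, and each had an interval that included 0. BBC3 encodes PUMA, which binds all guardians. It was at 8.18, 8.95 and 8.50 on control arrays and at 8.77, 8.73 and 8.78 on manganese arrays. The manganese values lay inside the control range, and the difference of 0.22 became -0.19 against control 2. BAD, which growth factor signalling keeps phosphorylated and inactive, was at 9.48, 10.29 and 9.93 and at 10.19, 10.16 and 10.02. It differed by 0.22, and by -0.16 against control 2. For both genes control 1 was lowest and control 2 highest.

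BCL2L11, which encodes BIM, the BH3-only protein of neurons deprived of trophic factors, showed the reverse order. It was at 7.69, 6.98 and 7.23 on control arrays and between 7.11 and 7.20 on manganese arrays, with control 1 highest and control 2 lowest. The difference was -0.14 (-0.55 to 0.26), and 0.17 against control 2. Its 6 probe sets above the filter gave -0.23 to -0.07. BID, which caspase-8 cleaves to link death receptors to mitochondria, differed by -0.05 (-0.37 to 0.27), or -0.26 against control 2, and its 4 probe sets gave -0.41 to -0.05. BIK at 0.12, BMF at 0.08 and HRK at 0.08 completed the class, with -0.04, 0.003 and 0.07 against control 2. A dimmer BIK probe set above the filter gave -0.08. HRK, a BH3-only protein of dying neurons, was dim, between 4.38 and 4.56 on the 6 arrays, where the 40th percentile lay at 4.37 to 4.40.

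**Figure D3:**
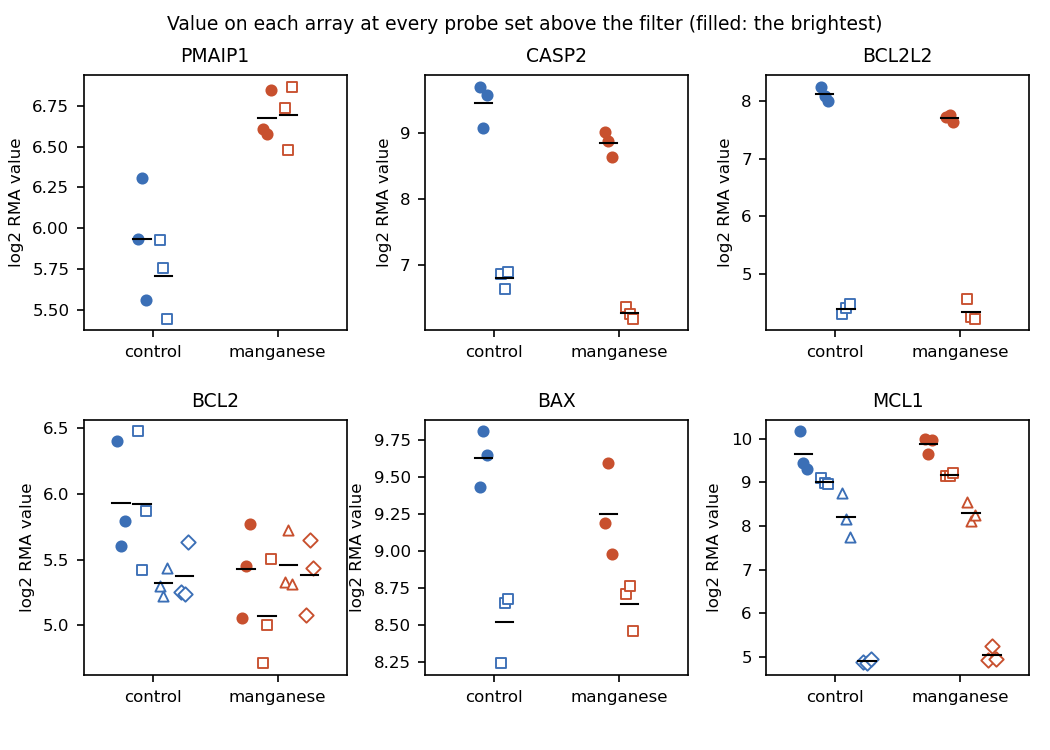
Log2 RMA values on each array at every probe set above the filter for 6 members (control blue, manganese red, filled symbols for the brightest probe set, open symbols for the others, black bars for group means). Both PMAIP1 probe sets separate the groups, as do both of CASP2, whereas for BCL2 and BAX the probe sets of one gene point to different sides.

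Caspases are cysteine proteases that are made inactive and cut to become active. CASP2, an initiator that responds to DNA damage and extra centrosomes, was at 9.70, 9.07 and 9.57 on control arrays and at 9.01, 8.88 and 8.63 on manganese arrays. The groups did not overlap, but control 2 was only just above manganese 1. The difference was -0.61 ± 0.18 (SE, n = 3 per group), a 1.52-fold lower level, with a limma adjusted p of 0.288 that ran from 0.0551 to 0.748 over the other settings. Against control 2 it was -0.23. The second CASP2 probe set was at 6.86, 6.63 and 6.89 on control arrays and at 6.36, 6.26 and 6.18 on manganese arrays, a difference of -0.52, or -0.37 against control 2. Both of these CASP2 probe sets carry a name suffix, s or x, that marks possible cross-hybridisation. A dim CASP2 probe set differed by -0.13, and its groups overlapped.

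CASP9, the caspase of the apoptosome, differed by -0.05 (-0.34 to 0.25), or -0.24 against control 2, and its other probe set gave 0.08. CASP8, the initiator downstream of death receptors, is often silenced in neuroblastoma. It was at 4.50, 4.59 and 4.64 on control arrays and at 4.68, 4.56 and 4.63 on manganese arrays, little above the filter. It differed by 0.04, or 0.03 against control 2, and only 1 of its 8 probe sets passed. CASP10, a related initiator, lay between 3.95 and 4.10, below the 40th percentile on all 6 arrays, with a difference of -0.01, or -0.04 against control 2. CASP6, an executioner linked to axon breakdown, was at 6.35, 6.10 and 5.64 on control arrays and at 5.99, 6.23 and 6.13 on manganese arrays, a difference of 0.09, or 0.02 against control 2. CASP4, an inflammatory caspase that binds bacterial lipopolysaccharide, lay between 3.11 and 3.32, with a difference of -0.0014, or -0.05 against control 2.

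The apoptosome is built from APAF1 and cytochrome c. APAF1 was dim at all 4 of its probe sets. The brightest was at 3.28, 3.26 and 3.30 on control arrays and at 3.84, 3.66 and 3.52 on manganese arrays, without overlap, a difference of 0.40, or 0.42 against control 2, that was not tested. The other 3 differed by -0.10 to 0.03. CYCS, the gene of cytochrome c, was at 10.35, 10.20 and 10.15 on control arrays and at 10.00, 10.08 and 10.27 on manganese arrays, a difference of -0.11 (-0.39 to 0.16), or -0.08 against control 2. A second CYCS probe set was at 8.42, 8.20 and 8.44 on control arrays and at 7.79, 7.72 and 7.81 on manganese arrays, a difference of -0.58 without overlap, or -0.43 against control 2. The third gave -0.23.

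Of the other factors that leave mitochondria, DIABLO and HTRA2 displace inhibitors from caspases, and ENDOG and AIFM1 act on DNA in the nucleus. ENDOG was at 9.42, 10.38 and 9.94 on control arrays and at 10.27, 10.29 and 10.18 on manganese arrays. HTRA2 was at 9.15, 10.00 and 9.58 and at 9.82, 9.83 and 9.68. For both genes the manganese arrays lay within the control range. ENDOG differed by 0.33 (-0.17 to 0.83), or -0.13 against control 2, and HTRA2 by 0.20 (-0.27 to 0.66), or -0.23 against control 2. All 4 HTRA2 probe sets had positive differences against the 3 controls and negative ones against control 2. DIABLO differed by -0.11 (-0.36 to 0.13), or -0.0058 against control 2. AIFM1 differed by 0.07 (-0.28 to 0.43), or -0.04 against control 2. BCL2L13, a BCL2-like protein that also serves as a mitophagy receptor and was counted on neither side, differed by -0.04 (-0.31 to 0.22), or 0.0079 against control 2.

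**Figure D4:**
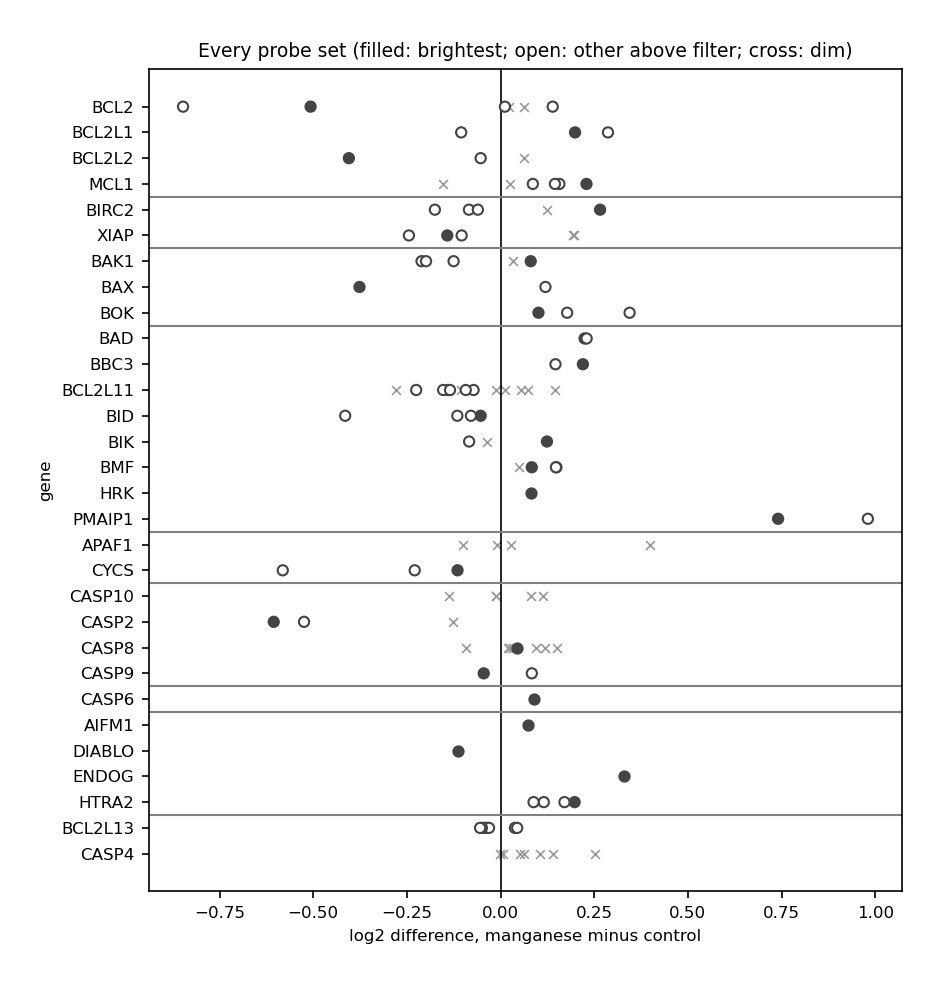
Log2 difference between manganese and control at each of the 117 probe sets of the 30 members, with the brightest of a gene filled, others above the filter open and dim ones as crosses. PMAIP1 lies far to the right at both probe sets and CASP2 to the left at both above the filter. Among the members that spread over both sides of 0 are BCL2, BAX, BAK1, BIRC2, BCL2L1 and BIK.

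Agreement between probe sets limited what could be read from single genes. Of the 117 probe sets of the members, 74 were above the filter. Of 21 members with several of these, 13 had all of them on one side of 0. The widest spread was that of BCL2, at 0.99 between its lowest and its highest difference, followed by BAX at 0.50 and CYCS at 0.47.

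Proapoptotic and antiapoptotic members were set against each other by their medians. The 22 proapoptotic members had a median difference of 0.08, with 14 positive, and the 6 antiapoptotic members a median of 0.03, with 3 positive. The median of all 18132 genes was 0.02, with 56.1% positive. Against control 2 alone the medians were -0.04 for the proapoptotic and 0.01 for the antiapoptotic side. To follow the balance on single arrays, each member was set against its own mean over the 6 arrays, and the antiapoptotic median was subtracted from the proapoptotic one. This balance was -0.45 on control 1, 0.13 on control 2 and -0.10 on control 3, and 0.08, 0.20 and -0.14 on the manganese arrays. It averaged -0.14 ± 0.29 in control and 0.05 ± 0.17 in manganese (SD, n = 3). The groups overlapped, and the difference of 0.19 was smaller than the SD of the control arrays.

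**Figure D5:**
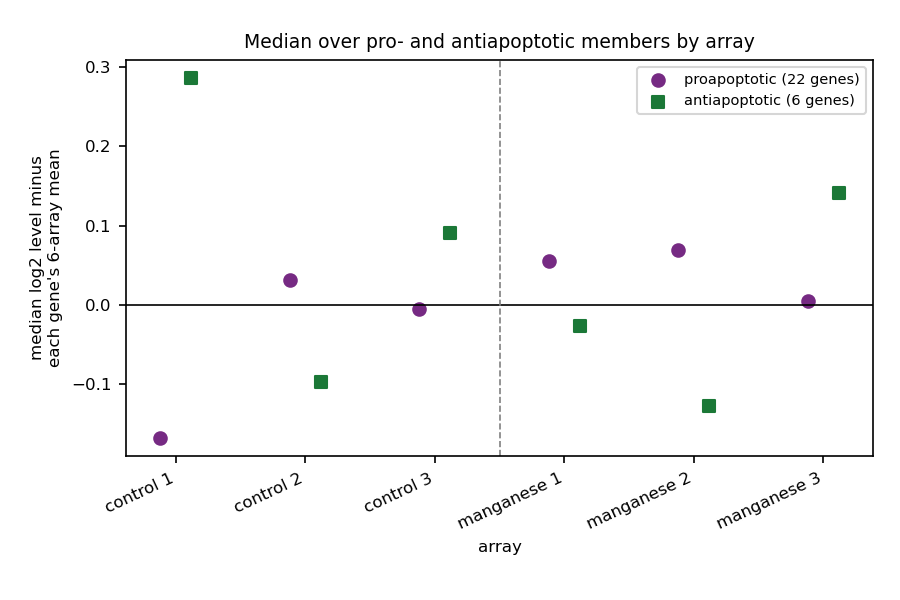
Median over the 22 proapoptotic members (purple circles) and the 6 antiapoptotic members (green squares) on each array, as log2 level minus the mean of each gene over the 6 arrays. The 2 medians are farthest apart on control 1, at -0.17 and 0.29, and cross from array to array within both groups.

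A pair of ratios that are often quoted for cell death behaved likewise, with each gene again set against its own mean. BAX minus BCL2 was -0.07 ± 0.60 in control and 0.07 ± 0.54 in manganese (SD, n = 3), and its lowest values were those of control 1 at -0.73 and manganese 3 at -0.56. PMAIP1 minus MCL1 was -0.26 ± 0.55 in control and 0.26 ± 0.17 in manganese, and control 2, at 0.31, lay within the manganese range of 0.07 to 0.37.

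The spread within groups was also compared. The median SD of the 27 tested members was 0.21 among control arrays and 0.07 among manganese arrays, against 0.19 and 0.11 over all genes tested. The antiapoptotic members had median SDs of 0.32 and 0.23, and the BH3-only genes 0.30 and 0.06.

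A list of 44 other apoptosis genes gave the surroundings of these members. Of these, 33 were tested, 7 were dim and 4 are not analysed here. None passed the threshold by limma. At an unadjusted p under 0.05 there were 3 higher and 2 lower, 15.2% of the 33 against 12.8% of all genes. The median difference was 0.05, and 17 of the 33 were positive.

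BNIP3 and BNIP3L, mitophagy receptors with a BH3-like segment that hypoxia induces, had positive differences. BNIP3 was at 11.69, 11.63 and 11.27 on control arrays and at 12.06, 12.11 and 12.15 on manganese arrays, a difference of 0.58 ± 0.13 (SE) with a limma adjusted p of 0.189, or 0.48 against control 2. BNIP3L differed by 0.55 ± 0.17 (limma adjusted p 0.293), and by 0.77 against control 2. Averaged over all passing probe sets the differences were 0.33 for BNIP3 and 0.15 for BNIP3L. BNIP1, a related protein that acts in membrane fusion at the endoplasmic reticulum, was at 8.01, 7.81 and 8.08 on control arrays and at 7.45, 7.67 and 7.54 on manganese arrays. It differed by -0.41 ± 0.12, or -0.26 against control 2.

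Caspase-2 is activated on a platform made of PIDD1 and CRADD. Beside CASP2 at -0.61, CRADD differed by 0.40 (0.01 to 0.80), or 0.20 against control 2. PIDD1 differed by 0.09 (-0.20 to 0.38), or -0.04 against control 2. DFFB, the nuclease that cuts chromatin in dying cells, differed by -0.36 (-0.64 to -0.09), or -0.45 against control 2, but by -0.09 when its 4 passing probe sets were averaged. Its inhibitor DFFA differed by 0.18 (-0.10 to 0.46), or 0.05 against control 2. ACIN1, a chromatin condensation factor cut by caspases, differed by -0.20 (-0.43 to 0.03), or -0.12 against control 2. The groups of DFFB, DFFA, CRADD and ACIN1 did not overlap. Of the 33 tested genes 8 had groups without overlap, 24.2% against 19.8% of all genes.

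Among transcription factors known to act on BH3-only genes, 7 were tested and FOXO1 was dim. JUN, which drives HRK and BCL2L11 in neurons that lose trophic support, was at 8.22, 8.34 and 8.27 on control arrays and at 8.79, 8.87 and 8.76 on manganese arrays. It differed by 0.53 ± 0.10 (SE) with a limma adjusted p of 0.138, or 0.46 against control 2. HRK, near the 40th percentile, differed by 0.08, or 0.07 against control 2, and BCL2L11 by -0.14, or 0.17 against control 2. The part of JUN in these values was not tested. ATF4 differed by 0.34 (0.09 to 0.60) and by 0.28 against control 2. DDIT3, which encodes CHOP, a partner of ATF4 in induction of BH3-only genes, differed by 0.10 (-0.23 to 0.43), or 0.14 against control 2. MYC differed by -0.40 (-0.65 to -0.15), or -0.55 against control 2. TP73 at 0.13, E2F1 at 0.27 and FOXO3 at -0.03 had intervals that included 0, with 0.22, -0.04 and 0.42 against control 2. No factor of the list passed the threshold, and 3 of the 7, ATF4, JUN and MYC, had an unadjusted p under 0.05, which 12.8% of all genes had.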

How the data were processed

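The authors deposited log2 expression values of 49395 probe sets on 6 arrays. Per the submitters' processing notes, RMA was used and the software was Affymetrix Expression Console. No version or scan date is given in the sources used here. RMA sets all arrays to one distribution, which removes a shift of total RNA shared by most genes. Gene names came from the platform annotation: 44994 probe sets had 1 symbol and 1832 several, and 0 symbols changed on update through RefSeq. The 102 Affymetrix control probe sets were not tested.

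A probe set passed if 3 or more arrays had it brighter than their 40th percentile. The brightest passing probe set stood for a gene. Limma 3.58.1 in R 4.3.3 (lmFit, eBayes, group only, two-sided) was fitted to 13407 genes with Benjamini-Hochberg adjustment across all of these. Differences are manganese minus control, on the log2 scale. Of the probe sets standing for tested members, 4 carry the suffix s and 5 the suffix x, which mark possible cross-hybridisation. Precision is limited by the array number. Members, lists and alternative settings were chosen with earlier results of these data known. Every member was named, with the 6 other apoptosis genes of smallest unadjusted p, all tested transcription factors of the list, and PIDD1 and DFFA, chosen after their values were seen as partners of named genes. Deviations from the group means correlated at -0.30, 0.15 and -0.27 between arrays of equal replicate number. Between arrays of unequal number they correlated at -0.44 to 0.50. With 3 arrays per group these values cannot decide whether cultures were paired.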

Additional observations from a re-analysis of the deposited data

How the results depend on the processing

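The count of 0 members and 0 other apoptosis genes past the threshold held with no filter, the 60th percentile filter, a trended and robust variance model, median centring, the mean of all passing probe sets and control 2 alone, and without any 1 array (0 to 0). Without control 3 or any 1 manganese array 0 of the 13407 genes were called, so the count says nothing there, and control 2 alone, with 5 genes called, is 1 array assumed to vary like the manganese arrays. With the replicate number as a block the counts were also 0 and 0, in a fit that called only 6 genes in all. In that fit 4 members had an unadjusted p under 0.05. The share of all genes is not given for it, so the 4 cannot be read as a result about the members. Centring on housekeeping genes called 1 member, PMAIP1. Against control 2 the proapoptotic median moved to -0.039 and the difference of the pro- minus antiapoptotic balance to -0.11, with each gene centred on the 4 arrays used, where centring on all 6 gives -0.08. Without 1 array those ran from 0.01 to 0.12 and from 0.0078 to 0.32, and the antiapoptotic median from -0.09 to 0.10. Signs turned for uncalled genes. Of the genes compared under every setting, against control 2 they were AIFM1 at -0.041, BAD at -0.16, BBC3 at -0.19, BCL2L1 at -0.022, BCL2L11 at 0.17, BCL2L13 at 0.0079, BIK at -0.041, E2F1 at -0.041, ENDOG at -0.13, FOXO3 at 0.42, HTRA2 at -0.23 and XIAP at 0.044, and PIDD1 turned to -0.036. With the mean of passing probe sets they were BAK1 at -0.11, BIRC2 at -0.014 and CASP9 at 0.019, and with housekeeping centring BCL2L13 at 0.0027 and FOXO3 at 0.015, besides the dim CASP10 at 0.032 and CASP4 at 0.043. Without 1 array the ranges that crossed 0 were -0.047 to 0.17 for AIFM1, -0.30 to 0.054 for BCL2L11, -0.10 to 0.043 for BCL2L13, -0.18 to 0.052 for BID, -0.10 to 0.25 for CASP6, -0.15 to 0.054 for CASP9, -0.040 to 0.21 for DDIT3, -0.25 to 0.25 for FOXO3, -0.017 to 0.41 for HTRA2 and -0.27 to 0.031 for XIAP, and for the dim genes -0.044 to 0.030 for CASP10 and -0.065 to 0.039 for CASP4. The causes were not tested. Levels near the 40th percentile (HRK, CASP8) or below it (CASP10, CASP4, APAF1) limit what can be seen.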

Other observations

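Several apoptosis genes outside the members were too dim to test. FAS, the death receptor, lay between 2.65 and 3.00 on the 6 arrays, BCL2A1, a guardian of blood cells, between 2.90 and 3.01, and CASP1 between 3.33 and 3.65. BCL2L14 was at 3.10 to 3.29 on control arrays and at 3.402 to 3.74 on manganese arrays, without overlap but below the 40th percentile throughout. It is named after its values were seen.

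A pair of probe sets annotated to both CASP6 and PLA2G12A was left out of the comparison. They differed by -0.37 and -0.56, while the probe set annotated to CASP6 alone differed by 0.09.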
